A study of Mus musculus with 10 samples.

Results

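Netrin-1 and Draxin are secreted cues that steer commissural axons, and Dcc, Neo1, Dscam and the Unc5 proteins are transmembrane proteins described as receptors for them. The genes were chosen by name as 1 ligand-receptor system: Ntn1, Draxin, Dcc, Neo1, Dscam, Unc5a, Unc5b, Unc5c and Unc5d. All 9 were found in the RNA table of 16338 genes and all 9 passed the filter on low values, and 21 of the 6995 deposited Rcor2 peaks carried the name of one of them. The series asked what Rcor2 (REST co-repressor 2), a scaffold of a histone demethylase and deacetylase repressor complex, does in development of the corpus callosum. Cortical midline was taken from C57/Bl6 mouse embryos on embryonic day 14.5 for every library. For RNA-seq, 2 control libraries came from Rcor2f/f embryos, in which both Rcor2 alleles are floxed, and 2 conditional knockout (cKO) libraries from Rcor2f/f embryos that also carried EMX1-iCRE. Emx1 drives Cre in progenitors of the dorsal telencephalon, so cells of ventral, vascular or blood origin in the same tissue keep the floxed gene intact. For chromatin immunoprecipitation (ChIP-seq), wild-type midline was precipitated with an Rcor2 antibody (2 libraries) or control IgG (2 libraries), beside 2 input libraries. The labels give no litter, sex or pooling, so each p-value measures only the spread between these libraries, which may be technical.

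Netrin-1 is a laminin-related protein. Through Dcc it attracts axons, while Unc5 receptors, alone or with Dcc, turn the response into repulsion. Draxin binds Dcc and netrins and repels commissural axons, and mice without Ntn1, Dcc or Draxin have defects of the corpus callosum. Neo1 (neogenin) is a relative of Dcc that also binds repulsive guidance molecules, and Dscam is an immunoglobulin superfamily adhesion protein.

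The set of RefSeq promoter stretches used here (GRCm38.p6, the assembly of mm10) listed a start site for 6 of the 9 genes. It had none for Ntn1, Dcc and Unc5d. Of the 6 stretches 3 are shown: the gene with the clear fall (Dscam), the gene with a rise (Unc5a) and the gene with the most Rcor2 peaks (Draxin). Each is the 250 bases before the start, printed 5′ to 3′ on the strand of the gene. They lie at chr16:97170736-97170985 (minus strand), chr13:54949161-54949410 (plus strand) and chr4:148130699-148130948 (minus strand). All 3 starts lie inside the gene's RefSeq span, which begins farther upstream, so each stretch is within the span. Capitals mark the GC box GGGCGG, which Sp factors bind, on either strand.
Dscam: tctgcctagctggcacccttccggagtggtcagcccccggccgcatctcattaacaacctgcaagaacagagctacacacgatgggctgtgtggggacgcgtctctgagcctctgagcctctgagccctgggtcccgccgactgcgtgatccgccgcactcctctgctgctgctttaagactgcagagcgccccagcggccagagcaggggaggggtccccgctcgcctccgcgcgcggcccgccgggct
Unc5a: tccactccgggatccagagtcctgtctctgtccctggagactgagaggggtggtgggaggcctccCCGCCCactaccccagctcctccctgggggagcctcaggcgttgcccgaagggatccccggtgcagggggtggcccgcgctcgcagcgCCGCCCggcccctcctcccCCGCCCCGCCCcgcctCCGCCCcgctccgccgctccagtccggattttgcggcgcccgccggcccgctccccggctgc
Draxin: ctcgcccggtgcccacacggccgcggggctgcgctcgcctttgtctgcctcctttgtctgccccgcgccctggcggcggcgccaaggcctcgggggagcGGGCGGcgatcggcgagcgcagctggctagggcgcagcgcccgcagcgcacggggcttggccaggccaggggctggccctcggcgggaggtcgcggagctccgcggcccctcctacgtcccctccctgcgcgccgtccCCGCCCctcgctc
The Dscam stretch held 0 GC boxes, that of Unc5a 5 and that of Draxin 2, counting matches that overlap each other. Of all 32851 promoter stretches of the same length in the table, 32.7% held at least 1 GC box on either strand. CAGCACC and GGACAGC are letters of the left and right parts of RE1, the element bound by Rest, the partner that gave the co-repressors their name. Neither was found on either strand in any of the 6 stretches, and among all 32851 stretches 5.73% held the first and 5.28% the second. The CpG content differed among the 3: 21 CpG dinucleotides in Dscam, 25 in Unc5a and 36 in Draxin, against a median of 6 over all stretches. None of the 21 peaks overlapped these windows.

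Several measures of the whole series bear on the 9 genes. The 4 RNA libraries held 27674987 to 30270598 recovered reads. Rcor2 itself had 7901 and 7257 normalized counts (reads scaled by the authors) in the controls, against 6363 and 6840 in the cKO. The difference of -0.20 on the log2 scale (SE 0.057) had a limma adjusted p of 0.0541. In the authors' deposited table Rcor2 passed, with -0.19 and an adjusted p of 0.0444. Which exons are floxed is not stated in the labels, so a count over the whole gene is a weak check of the labels. Of 107 tested marker genes of 14 cell classes 22 rose and 28 fell, beside 14.5% called over all genes. Among them 12 of 14 pan-neuronal genes fell, 7 of 10 cell cycle genes rose, and 4 of 7 tested interneuron and ventral genes fell. Of the deep-layer and upper-layer neuron genes 5 of 7 and 4 of 7 fell. Radial glia and intermediate progenitors each had 4 rises and 1 fall. Hem and choroid plexus had 2 rises, midline glia 2 and meninges 3. Of 2 tested erythroid genes 1 fell, and their sum was 751 and 938 in the controls, against 290 and 428 in the cKO. The remaining lists had no call. Without the first or second control library, 4 or 3 pan-neuronal genes fell, 0 or 1 cell cycle genes rose, and 1 interneuron and ventral gene fell in either case. Without the first cKO library the counts were 10, 4 and 4. Mapt and Snap25 fell among the pan-neuronal genes, by 0.75 and 0.76 on the log2 scale. The summed pan-neuronal level was 187891 and 189183 in the controls, against 135555 and 146864 in the cKO. The first cKO library also stood apart in its level of meningeal and mesenchymal markers, 8635 summed over 7 genes against 1398 to 1992 in the other libraries. All 14 pan-neuronal, 10 radial glia, 9 hem and choroid plexus and 6 midline glia genes were measured, and none was at 0 in all libraries. This is a weak check of the labelled tissue, since low counts suffice for it. Ttr, for 1, had 19.5 and 14.1 normalized counts in the controls, against 9.25 and 5.87 in the cKO. In whole tissue, fewer cells of a type and less RNA per cell cannot be told apart.

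The first question was whether transcripts of the 9 genes differ when Rcor2 is deleted. In the cKO, Dscam and Unc5d fell, Unc5a rose, and the other 6 genes did not pass the threshold of a limma adjusted p under 0.05. Over all 14324 tested genes 14.5% passed, 6.16% higher and 8.29% lower in the cKO. The median log2 change was -0.03 over the 9 genes and -0.01 over all genes tested. The normalized counts of the 2 groups did not overlap for 7 of the 9 genes, beside 61.0% of all tested genes. Normalized counts are not divided by transcript length, so levels are compared below between libraries and never between genes.

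**Figure D1:**
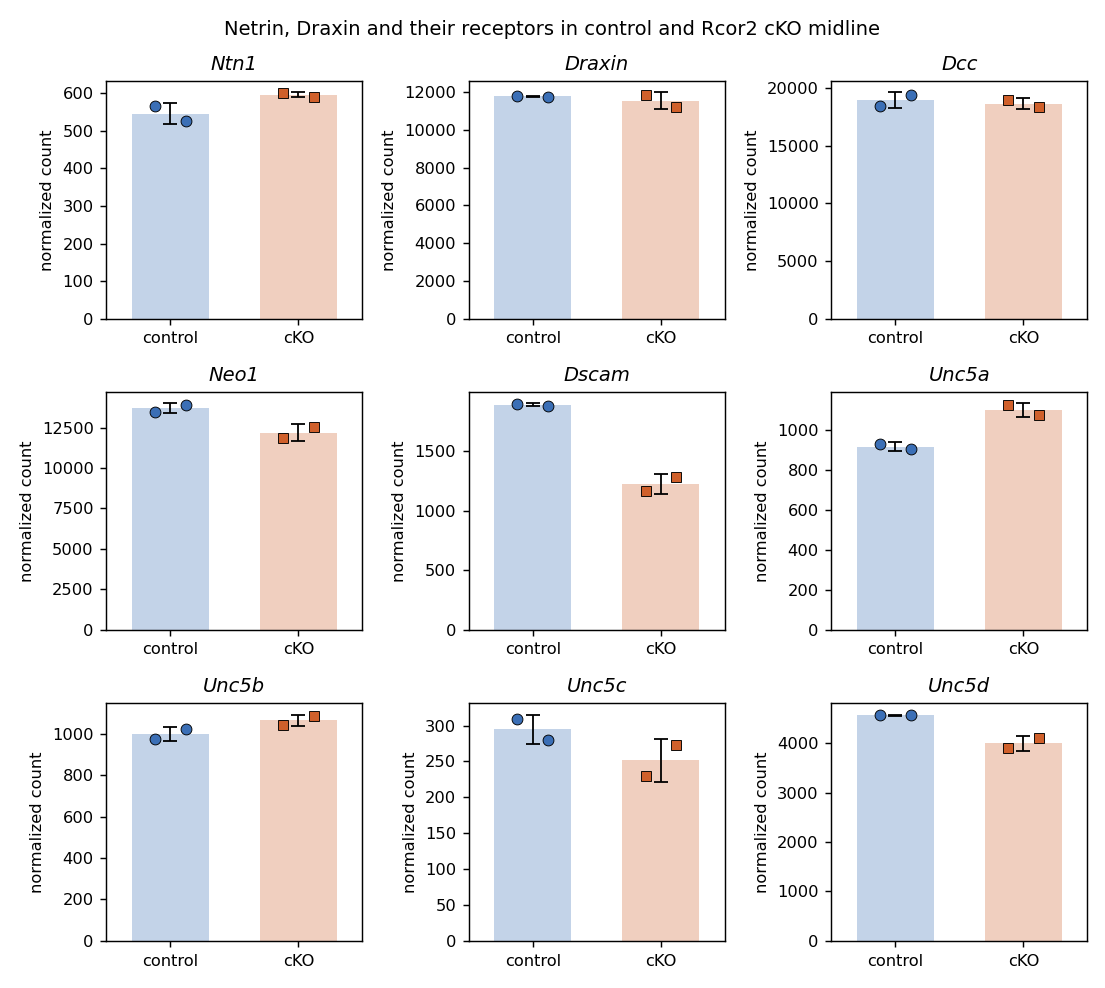
Normalized counts of each gene in the 2 control (blue circles) and 2 cKO (orange squares) libraries. Bars are group means from 0, error bars the SD (n = 2 each), and each panel has its own vertical scale; the 2 groups of Dscam stand far apart, at 1888 against 1221, while those of Dcc and Draxin overlap.

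Neither secreted cue passed the test. Ntn1 (chromosome 11, 68209364 to 68386826) had 565.6 and 525.4 normalized counts in the controls, against 600.5 and 591.1 in the cKO. Both cKO values were above both controls, but the log2 change of 0.13 (SE 0.079, 95% interval -0.05 to 0.31) had a limma adjusted p of 0.320. Draxin (chromosome 4, 148098437 to 148131139) had 11812 and 11763 in the controls, against 11860 and 11236 in the cKO. Its groups overlapped, and the first cKO library had the highest value of the 4. The log2 change of Draxin was -0.03 (SE 0.046, limma adjusted p 0.704), and its interval, -0.14 to 0.07, holds changes of either sign.

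Among the receptors of the Dcc family, Dcc showed no difference that passed. It had 18464 and 19415 normalized counts in the controls, against 18974 and 18302 in the cKO, with the lowest value in a cKO library and the highest in a control. The difference of -0.02 on the log2 scale (SE 0.048, 95% interval -0.13 to 0.09) had a limma adjusted p of 0.788. The sign of the Dcc and Draxin changes turned with quantile normalization, so no direction is given for either. Neo1 (chromosome 9, 58874679 to 59036614) had 13477 and 13901 in the controls, against 11827 and 12562 in the cKO, with both cKO values below both controls. Its log2 change was -0.17 (SE 0.048, 95% interval -0.28 to -0.06), and the limma adjusted p of 0.0532 missed the threshold. In the authors' deposited table Neo1 had a log2 change of -0.15 with an adjusted p of 0.0492, on the other side of the same threshold.

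Dscam, the adhesion receptor, had the largest change of the 9 genes. In the controls it had 1896 and 1880 normalized counts, against 1161 and 1281 in the cKO (chromosome 16, 96587452 to 97171113). The controls differed from each other by far less than from either cKO library. The means were 1888 ± 11.2 and 1221 ± 85.0 (SD, n = 2 each), so that the mean fell by 35.3%. On the log2 scale the change was -0.63 (SE 0.063, 95% interval -0.77 to -0.48), with a limma adjusted p of 0.00387. Among the 1188 genes that were lower in the cKO, 220 had a fall at least as large, Dscam included. The authors' deposited table gave a log2 change of -0.62 for Dscam with an adjusted p of 6.41e-09. When 1 library was left out the log2 change of Dscam lay between -0.70 and -0.56 and the limma adjusted p between 1.57e-05 and 0.0447. Such a fit leaves 1 library in a group and assumes that it varies like the other group. Its p-values are therefore no measure of stability, and they were smaller than with all libraries when a cKO library was left out.

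Unc5a rose and Unc5d fell, by smaller steps. Unc5a (chromosome 13, 54945151 to 55006018) had 933.3 and 904.8 normalized counts in the controls, against 1125 and 1078 in the cKO. Its log2 change was 0.26 (SE 0.063, 95% interval 0.12 to 0.40, limma adjusted p 0.0298). Unc5d, which in cortical neurons on their way to the plate binds Flrt2, lies on chromosome 8 at 28646717 to 29219671. It had 4563 and 4576 normalized counts in the controls, against 3894 and 4105 in the cKO. The controls of Unc5d were nearly equal and above both cKO libraries. Its log2 change was -0.19 (SE 0.047, 95% interval -0.30 to -0.09, limma adjusted p 0.0305). Neither call held when a control library or the first cKO library was left out. Leaving out a control library also ended most calls over all genes. When 1 library was left out, the log2 change of Unc5a lay between 0.23 and 0.29. That of Unc5d lay between -0.23 and -0.15. With edgeR's quasi-likelihood test Unc5d passed (adjusted p 0.0242) and Unc5a did not (adjusted p 0.0605), and in the authors' deposited table neither passed (adjusted p 0.0677 for Unc5a and 0.0523 for Unc5d).

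The other Unc5 receptors did not pass. Unc5b (chromosome 10, 60762594 to 60831581) had 974.2 and 1020 normalized counts in the controls, against 1044 and 1083 in the cKO. Both cKO values were the higher ones, with a log2 change of 0.09 (SE 0.063, 95% interval -0.05 to 0.24, limma adjusted p 0.366). Unc5c (chromosome 3, 141465564 to 141834924) had 309.1 and 280.0 in the controls, against 230.3 and 273.1 in the cKO. Its log2 change of -0.23 (SE 0.12) had a 95% interval of -0.51 to 0.05, and the limma adjusted p was 0.254. Whether the 4 Unc5 genes differ from each other in their change was not tested.

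**Figure D2:**
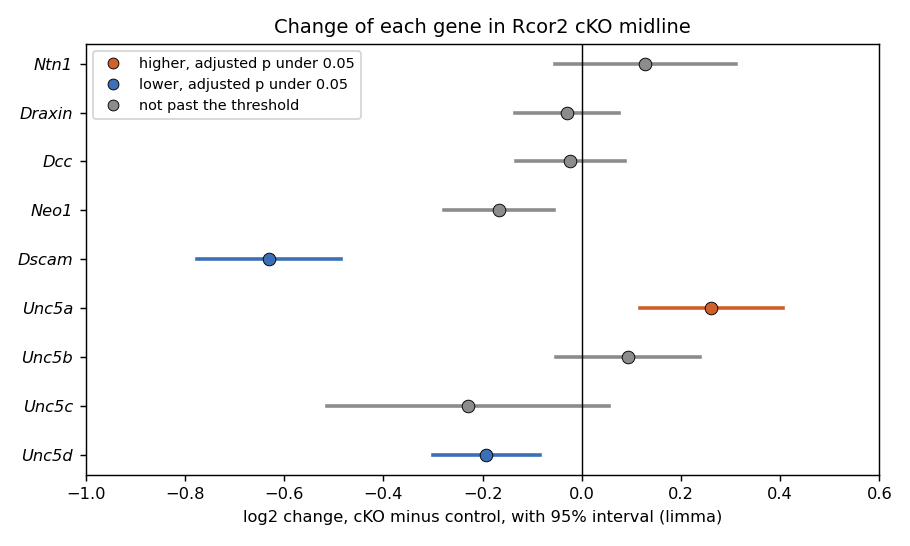
Log2 change of each gene between cKO and control midline (horizontal axis) with its 95% interval from limma (line). Dscam lies farthest from 0 at -0.63, Unc5d at -0.19 is also lower, Unc5a at 0.26 is higher, and grey points did not pass an adjusted p under 0.05.

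Because pan-neuronal markers were lower in the cKO, the 9 genes were also set against them within each library. Per 1000 normalized counts summed over the 14 pan-neuronal genes, Dscam had 10.1 and 9.94 counts in the controls, against 8.56 and 8.72 in the cKO. Dscam was thus lower on this scale too, with a mean log2 difference of -0.21, against -0.63 in normalized counts. The sum weights each gene by its counts. Map2, Tubb3 and Dcx, with the highest counts of the 14, had log2 changes of -0.32, -0.47 and -0.41. Dividing by this sum, which was lower in the cKO, raises the log2 difference of every gene by the same amount. A gene with no change in normalized counts is therefore higher on this scale, and the sign shows only whether a gene was lowered by more or by less than the sum. The other 8 genes had mean log2 differences from 0.19 (Unc5c) to 0.68 (Unc5a), and Dcc, at -0.02 in normalized counts, had 0.40. These are ratios of counts with no test, and 2 of the 14 pan-neuronal genes, Mapt and Snap25, had larger falls than Dscam. The part of the lower neuronal markers in the fall of Dscam was not tested.

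The genes whose pattern over the 4 libraries was nearest to that of Dscam were Hyi, Actl6b and Pabpc5. Likeness was the distance between the 4 log2 values after each gene was centred on its mean, over genes with a mean of at least 50, and these 3 lay 0.015, 0.017 and 0.038 from Dscam. Actl6b, a subunit of the neuronal BAF chromatin remodelling complex, had 1541 and 1544 normalized counts in the controls, against 941 and 1051 in the cKO. Nearest to Unc5a were Cdc14a, Gnai2 and Poll, at distances of 0.012, 0.012 and 0.015. With 4 libraries such likeness is common: 43 genes lay within 0.1 of Dscam and 486 within 0.1 of Unc5a.

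Other genes of netrin signalling changed in both directions. Of 69 listed genes 67 were tested: 9 rose, 12 fell, and the other 46 stayed above the threshold. Their median was -0.09 on the log2 scale, beside -0.01 over all genes. Over all tested genes 14.5% passed. Leaving out a control library ended most of these calls, as it did over all genes tested. Without the second cKO library more genes passed, again both in this list and over all genes. These swings are therefore no trait of the netrin genes.

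None of the 4 tested relatives of netrin-1 passed. Ntn4, a netrin of basement membranes, had 269 and 291 normalized counts in the controls, against 365 and 350 in the cKO (log2 0.35, SE 0.10, limma adjusted p 0.0513). The membrane-anchored netrins Ntng1 and Ntng2 had log2 changes of 0.19 (SE 0.21) and -0.15 (SE 0.073).

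Of 14 tested receptor relatives and co-receptors, 5 rose and 3 fell. Dscaml1, the closest relative of Dscam, fell, from 1257 and 1082 normalized counts in the controls to 835 and 944 in the cKO (log2 -0.39, SE 0.091, limma adjusted p 0.0262). Rgma, a repulsive ligand of Neo1, rose from 2463 and 2452 to 3561 and 3007 (log2 0.41, SE 0.075, limma adjusted p 0.0119), whereas its relative Rgmb, at -0.16, did not pass (limma adjusted p 0.0948). Flrt3, a membrane ligand of Unc5 receptors, rose by 0.18 (SE 0.045, limma adjusted p 0.0366), and Flrt2, at -0.10, did not pass (limma adjusted p 0.226). The co-receptor genes Cdon and Boc, better known from hedgehog signalling, rose by 0.30 and 0.34. The proteoglycan Gpc3, an Unc5 ligand, had 309 and 339 normalized counts in the controls, against 897 and 525 in the cKO (log2 1.08, SE 0.21, limma adjusted p 0.0143). The higher of the 2 cKO values of Gpc3 was in the library with the high meningeal markers, and without that library the log2 change was 0.69 (limma adjusted p 0.00301, with only the controls giving the spread). Whether meningeal cells add to the Gpc3 count was not tested. Adgrl1, a latrophilin that binds Flrt proteins, fell by 0.22.

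Of 16 genes of receptor processing and trafficking, 1 rose and 4 fell. Trim9, a ubiquitin ligase that binds Dcc, had 844 and 849 normalized counts in the controls, against 553 and 588 in the cKO (log2 -0.57, SE 0.072, limma adjusted p 0.00540). Its relative Trim67, which also binds Dcc, went from 2330 and 2531 to 1865 and 1760 (log2 -0.42, SE 0.060, limma adjusted p 0.00665). Neither gene had overlapping groups, which also holds for 61.0% of all tested genes. Myo10, a motor that carries Dcc into filopodia, rose by 0.40 (SE 0.063).

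Among 33 kinases, adaptors and other downstream genes, 3 rose and 5 fell. Robo1, a Slit receptor that interacts with Dcc, fell by 0.39 (SE 0.056), and Robo3, the divergent Robo receptor that binds Dcc, rose by 1.60 (SE 0.26, limma adjusted p 0.00881) from a low level of 43.9 and 30.3 normalized counts to 137 and 93.0. The guanine exchange factor Trio and the adaptor Baiap2 fell by 0.23 and 0.47. The calcium-dependent factors Nfatc4 and Nfatc2 rose by 0.41 (SE 0.058) and 0.81 (SE 0.14). Fyn, Src and Ptk2, the kinases that Dcc recruits, had log2 changes of -0.09, 0.07 and -0.15, of which none passed. Ptk2 lay just above the threshold.

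**Figure D3:**
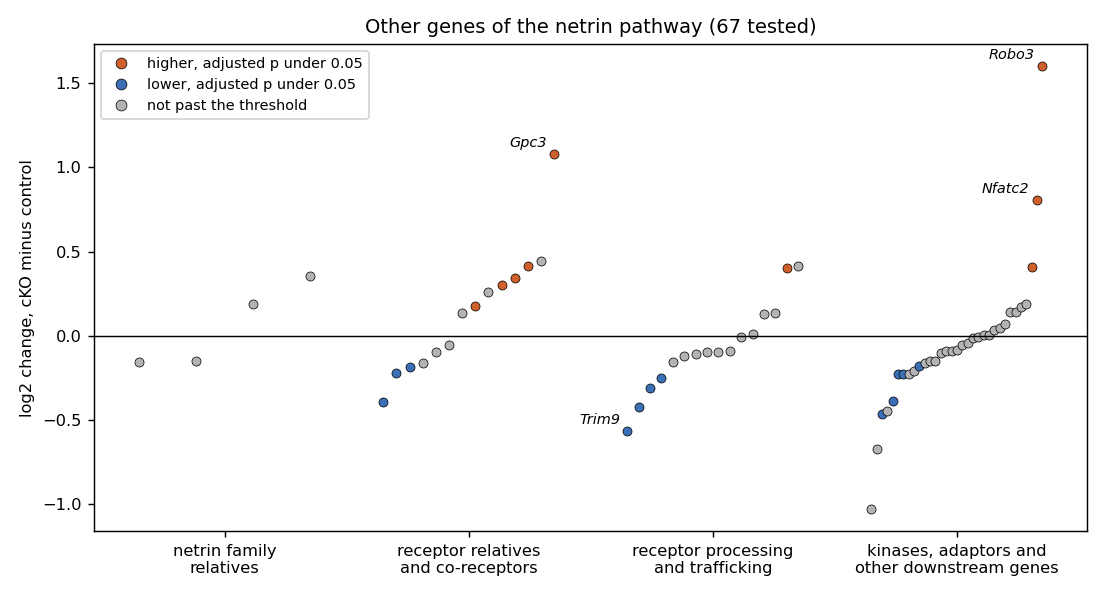
Log2 change (vertical axis) of 67 other genes of netrin signalling, grouped by role along the horizontal axis and ordered by value within each group. Orange points rose (9 genes), blue points fell (12) and grey points did not pass, and the 2 largest rises are Robo3 at 1.60 and Gpc3 at 1.08.

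The second question was where Rcor2 lies on chromatin near these genes. Of the 9 genes, 6 were named for at least 1 Rcor2 peak by the authors, beside 20.9% of all tested genes. Draxin had 7 peaks, Dcc 4, Unc5a, Unc5b and Dscam 3 each, and Ntn1 1, while Neo1, Unc5c and Unc5d had none. The nearest peak lay 245144 bases from the span of Neo1, 118139 from that of Unc5c and 50841 from that of Unc5d. Of the 21 peaks, 18 were classed as gene body, 2 as distal and 1 as promoter, whereas 36.0% of all peaks were gene body and 23.1% promoter. The spans of the 9 genes run from 32.7 kb for Draxin to 1098 kb for Dcc. Whether span bears on the number or class of peaks was not tested. Of the 3 genes whose transcripts passed the test, Dscam and Unc5a had peaks and Unc5d had none, and Draxin, with the most peaks, did not pass.

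Peak height is the coverage at a peak in 1 library, in whole numbers that show no scaling for depth. Peaks were called for a high Rcor2 signal over IgG, so the Rcor2 to IgG difference is a description of how they were chosen. At the 21 peaks the first Rcor2 library had heights of 8 to 23 (median 12) and the second 13 to 42 (median 18). The IgG libraries had 0 to 9 (median 4) and 0 to 6 (median 3). Both Rcor2 heights were above both IgG heights at all 21 peaks, beside 98.9% of all peaks. Input chromatin was high at many of these peaks, with heights of 5 to 24 (median 15) and 5 to 20 (median 12). Both Rcor2 heights exceeded both input heights at 8 of the 21, beside 40.3% of all 6995 peaks. After each height was divided by its library's median over all peaks, 5 of the 21 did, beside 29.8% of all peaks. Those medians were 13 and 19 for Rcor2 and 13 and 12 for input. They come from peaks called for high Rcor2, so the division also removes the typical Rcor2 excess and is no plain correction for depth. The median ratio of Rcor2 to input was 1.37 over the 21 peaks and 1.33 over all peaks.

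**Figure D4:**
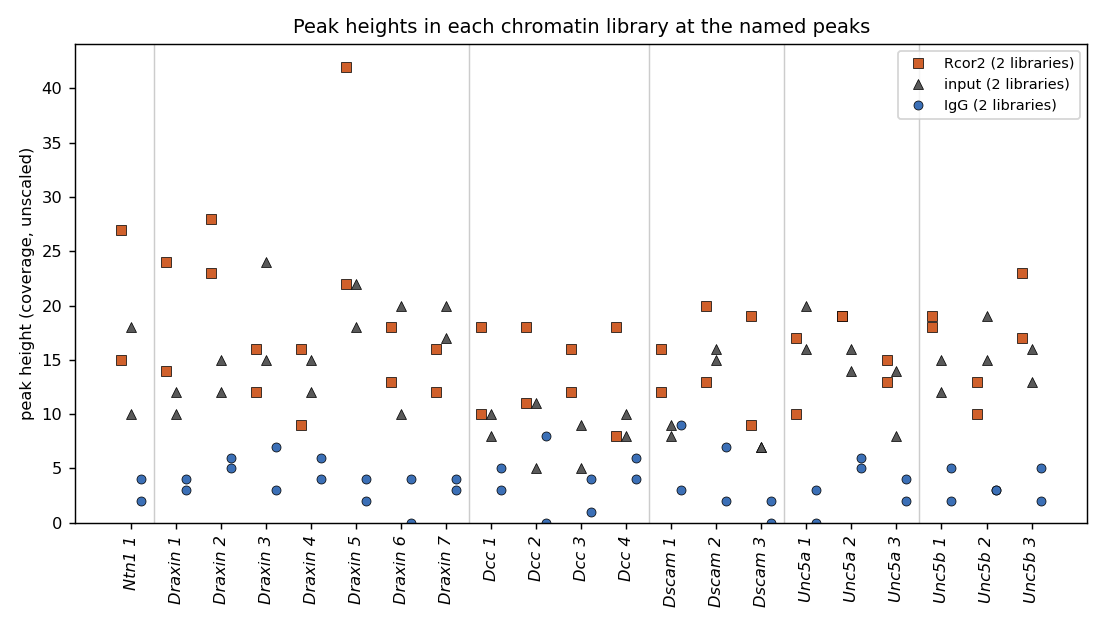
Unscaled peak height (vertical axis) in the 2 Rcor2 (orange squares), 2 input (grey triangles) and 2 IgG (blue circles) libraries at each of the 21 peaks, numbered along the chromosome within each gene. Every Rcor2 square lies above the IgG circles of its peak. At 13 peaks the higher input triangle is level with or above the lower Rcor2 square. At Draxin 7 and Unc5b 2 both input triangles lie above both Rcor2 squares.

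Draxin carried the densest group of these peaks. Its 7 peaks had summits from -1730 to 13755 bases from the RefSeq start, negative values lying before it, and 51 of 3497 named genes (1.46%) had at least 7. All 7 named peaks, divided by the gene span, gave 21.4 peaks per 100 kb, although the promoter peak lies outside the span. This was the 53rd highest value among 408 genes with at least 3 named peaks, counted in the same way, whose median was 3.25. Within chr4:148121032-148122996 there were 4 peaks over 1965 bases, 113 to 269 bases apart, too close to be counted as independent. The strongest of the 21 peaks, chr4:148122430-148122996, was one of them. It had Rcor2 heights of 22 and 42, IgG heights of 2 and 4, and input heights of 22 and 18. The authors' fold enrichment there was 7.66, which is no ratio to the IgG heights at the peak. The first Rcor2 library was no higher than the first input library there. A neighbour in the group, chr4:148121032-148121418, had Rcor2 heights of 23 and 28 against 15 and 12 in input. The peak between them with the lowest ratio, chr4:148121688-148121908, had 12 and 16 for Rcor2 and 24 and 15 in input, a ratio of 0.725. The 1 promoter peak, chr4:148132294-148132495, carried the joint name Draxin/Mad2l2 and had 12 and 16 for Rcor2 against 17 and 20 in input.

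**Figure D5:**
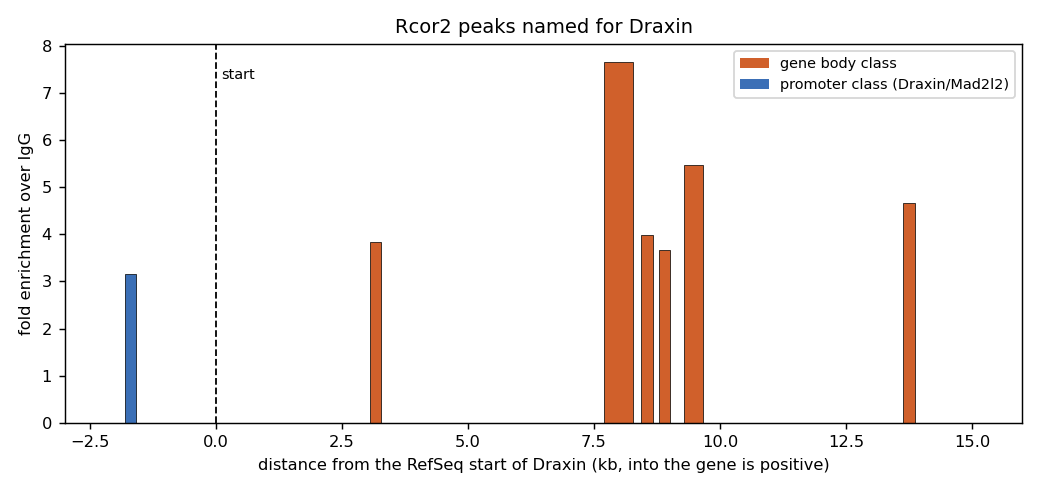
Fold enrichment, labelled over IgG (vertical axis, the authors' values), of the 7 peaks named for Draxin. It is no ratio to the IgG heights at a peak. Bars run from the first to the last base of a peak against the distance from the RefSeq start in kb. The peak of 7.66 and 3 others stand within 1965 bases of each other inside the gene, and 1 peak lies before the start.

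The 3 Dscam peaks lay far inside the gene, with summits 146556, 173087 and 326906 bases after the start. The one nearest to the start, chr16:97024076-97024248, had Rcor2 heights of 9 and 19 against 7 and 7 in input and 2 and 0 with IgG. Its Rcor2 to input ratio was 1.93, or 0.95 on the log2 scale, and the log2 ratio was 0.34 without the second Rcor2 library and 0.55 after median scaling. The farthest, chr16:96843796-96843959, had 12 and 16 against 8 and 9 in input and 9 and 3 with IgG. At the third, chr16:96997565-96997794, Rcor2 (13 and 20) and input (15 and 16) overlapped. Heights this small carry a wide counting error. With 2 libraries of a kind an exact permutation test of 1 peak cannot go below p = 0.333.

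The peaks of the Unc5 genes and Dcc had modest heights. At Unc5a, the gene body peak nearest to the start, chr13:54956414-54956788, had Rcor2 heights of 19 and 19 against 16 and 14 in input, and its summit lay 7142 bases after the start. The distal Unc5a peak, 32304 bases before the gene's span, had 10 and 17 against 20 and 16. At Unc5b, chr10:60828960-60829232, with its summit 2493 bases after the start, had 17 and 23 against 16 and 13, and chr10:60827297-60827470 had 10 and 13 against 19 and 15. The last was the lowest Rcor2 to input ratio of the 21 peaks, 0.686. All 4 Dcc peaks were of the gene body class, with Rcor2 heights of 8 to 18, and at 1 of them both Rcor2 heights (12 and 16) were above both input heights (5 and 9). The Dcc peak with the lowest fold enrichment of the 21, 3.15 in the authors' deposited table, had Rcor2 heights of 11 and 18, IgG heights of 8 and 0 and input heights of 11 and 5. The single Ntn1 peak, chr11:68399657-68399904, lay 12831 bases outside the span of Ntn1 and was classed as distal. It had Rcor2 heights of 15 and 27, input heights of 18 and 10 and IgG heights of 2 and 4.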

How the data were processed

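The RNA values are counts that the authors normalized, per the file headers, here treated as a signal per gene and library. Of these deposited values 99.99% were whole multiples of 1 step per library (tolerance 1e-04 reads), and the multiples were taken as recovered read counts. HISAT2 2.1.0, Trim Galore and the build mm10 appear in the submitters' processing notes, with no step attached. Gene counter, annotation and peak settings: not given in the sources used here. The deposited columns of log2 fold changes, a test score and p-values are the authors' own comparison. Per the file headers, the peak table holds the authors' heights (coverage) per library, a fold enrichment ratio over IgG and, by place and range, −log10 of p and q.

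Limma-trend (limma 3.58.1, R 4.3.3) was fitted to log2(normalized count + 1), two-sided, with no replicate block, for 14324 genes whose mean reached 10, and 2014 genes were left out. With 2 residual and 6.21 prior degrees of freedom, p-values were adjusted by Benjamini-Hochberg over all genes. The scale understates changes of low genes. Alternatives used edgeR 4.0.16 and DESeq2 1.42.0 on recovered reads. The fit was also run on simulated counts with the same spread setting for every gene. That setting does not copy the differences between these libraries, so the run does not bear on the calls here. Ratios of heights had 0.5 added to both means. Peaks were matched by gene name, joint names included.

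Genes and lists were chosen with earlier results of these data known. The rule for named genes covered the 9 genes, Rcor2 and the 14 called pathway genes with the smallest adjusted p. It also covered Ntng1, Ntng2, Dscaml1, Flrt2, Flrt3, Rgma and Rgmb, and the 3 genes nearest to each of the 2 most changed members. It allowed up to 2 called genes of each marker list, of which only Mapt and Snap25 are named. Ntn4, Fyn, Src and Ptk2 were named after their values were seen. Map2, Tubb3, Dcx and Ttr were also named outside the rule. Figures used Python 3.11.15 and matplotlib 3.10.9.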

Additional observations from a re-analysis of the deposited data

How the results depend on the processing

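Leaving out 1 library in turn gave 140 to 3453 called genes in place of 2070, with 1 to 4 of the 9 genes, 1 to 34 of the pathway genes (21 with all libraries) and 7 to 64 of the marker genes (50) called; the low ends came without a control, and for the 9 genes also without the first cKO library. DESeq2 on recovered reads called 1 of the 9, Dscam, which passed under all 14 alternatives, 4 of them with 1 library in a group that is assumed to vary like the other group. Direction changed for 2 genes that had not passed. Dcc had log2 changes of 0.065 with quantile normalization and -0.059 to 0.013 when 1 library was left out (0.013 without the second control, 0.0030 without the second cKO library). Draxin had 0.0090 with quantile normalization and -0.069 to 0.0089 when 1 library was left out (0.0089 without the second cKO library).

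The labels do not say that a replicate number marks a shared litter or day, and deviations of same-numbered libraries had a correlation of 0.24. With the replicate number as a block 2076 genes, 3 of the 9, 20 pathway and 54 marker genes passed; paired by number, 10 peaks had Rcor2 above input in both pairs. Of the 21 peaks, 11 had a −log10 q of at least 5 and 18 overlapped the span of a gene. For the 6 genes with a RefSeq start in the promoter set used here, which hold 16 of the peaks, 4 lay within 5000 bases of it. By exact name, a choice made after seeing the data, 20 matched. Peaks with Rcor2 above input numbered 8, 5 after median scaling, and 8 to 16 when 1 library was left out (16 without the first Rcor2 library). Heights of a few reads and 2 libraries of a kind limit every peak value.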
